A study of Mus musculus with 36 samples.

Results

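Across 4 kinds of primary mouse cells, 30 protein-coding genes that were close to silent in all controls were transcribed after 6 h of butyrate in at least 2 of the cell types, and 22 of them in exactly 2 at the level chosen. The genes were chosen on their levels in CPM, the counts of a gene per 1000000 counts of its library. A gene was included if its mean was below 1 CPM in the control group of every cell type and 3 CPM or more in the butyrate group of at least 2 cell types. Histone genes and *Efna3*, *Dact3*, *Tspyl4* and *Cbarp* were to be left out, and 0 of them met the limits. Of 54347 genes in the table, 21803 were annotated as protein-coding and 7776 of these were below 1 CPM in all 4 control groups, so that the 30 genes made up 0.386% of the silent protein-coding genes. The rise from control to butyrate chose these genes, and their butyrate levels are therefore given as a description without a test.

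The cells were primary adipocytes, macrophages, skeletal myotubes and hepatocytes of male mice. All are labelled C57Bl/6, and the methods of the study give C57BL/6NHsd for the hepatocytes and WT-C57Bl/6 for the other cell types, so that substrain and cell type cannot be told apart. The adipocytes were differentiated in culture from the stromal vascular fraction of inguinal fat pooled from 3–4 mice, the macrophages were grown from bone marrow, the myotubes were formed from hindlimb myoblasts and the hepatocytes were isolated by perfusion of the liver with collagenase. Each cell type was treated for 6 h with 5 mM butyrate, with 5 mM β-hydroxybutyrate (βOHB) or, as control, with PBS, and each of the 12 groups held 3 libraries of RNA sequencing. No label says whether the 3 libraries of a group came from separate animals or cultures, so that the p-values measure only the spread between these libraries, which may be technical. The question behind the comparison was whether βOHB, a ketone body that carries a hydroxyl group where butyrate has none, acts on the transcriptome as butyrate does.

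Butyrate, a short-chain fatty acid made by bacteria in the gut, inhibits class I histone deacetylases, enzymes that remove acetyl groups from histone tails. Genes that belong to another tissue are kept off by several layers of repression, among them REST with its corepressors at neuronal genes, the Polycomb complexes that write and read methylation of H3K27, heterochromatin marked by methylation of H3K9, the NuRD complex and methylation of DNA. The corepressors of REST and the NuRD complex contain histone deacetylases, and an inhibitor of these enzymes is known to raise low transcription at a number of such genes.

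The start regions of the genes were read from RefSeq (GRCm38.p6), whose table held 20 of the 30 genes. *Rgs9bp*, *Kcnh3*, *Pou3f1*, *Gli1*, *Lrfn1*, *Rab37*, *Lefty1*, *Pnma2*, *Tex15* and *Cbln1* were not in it. Starts here are those of RefSeq and can differ from those of GENCODE, which gave the gene positions below. The RefSeq start of *Ell3* lies inside its GENCODE span (121439010–121444278), as does that of *Ajm1*, and that of *Chrm4* lies upstream of its span. The 250 bases before the RefSeq start are printed, 5′ to 3′ on the strand of the gene, for 4 genes that span what the 20 hold. *Ell3* (chr2:121442602-121442851, minus strand) had the highest level under butyrate per exonic length and holds 4 GC boxes, *Ccdc158* (chr5:92675128-92675377, minus strand) reached 3 CPM in 4 of 4 cell types, *Plcxd1* (chr5:110099719-110099968, plus strand) is the poorest in CpG of the 20, and *Slc30a3* (chr5:31108245-31108494, minus strand) carries the only match to the core of the RE1 element bound by REST. Capitals mark a motif on either strand, namely the GC box (GGGCGG) in *Ell3*, the GC box and the ETS motif (CCGGAAG, here as CTTCCGG) in *Ccdc158*, and the RE1 core (GGACAGC) and TATA box (TATAAA) in *Slc30a3*. The sequence of *Plcxd1* holds none of the motifs searched.
Ell3: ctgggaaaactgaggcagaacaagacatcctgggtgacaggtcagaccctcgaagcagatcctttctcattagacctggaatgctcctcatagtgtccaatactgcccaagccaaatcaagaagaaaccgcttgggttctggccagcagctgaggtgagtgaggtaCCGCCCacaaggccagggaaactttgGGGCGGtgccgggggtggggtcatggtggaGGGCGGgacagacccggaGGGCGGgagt
Ccdc158: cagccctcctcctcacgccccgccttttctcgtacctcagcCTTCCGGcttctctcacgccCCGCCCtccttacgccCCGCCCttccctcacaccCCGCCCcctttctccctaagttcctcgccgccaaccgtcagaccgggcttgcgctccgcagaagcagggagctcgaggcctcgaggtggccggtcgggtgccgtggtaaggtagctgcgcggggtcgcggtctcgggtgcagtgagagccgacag
Plcxd1: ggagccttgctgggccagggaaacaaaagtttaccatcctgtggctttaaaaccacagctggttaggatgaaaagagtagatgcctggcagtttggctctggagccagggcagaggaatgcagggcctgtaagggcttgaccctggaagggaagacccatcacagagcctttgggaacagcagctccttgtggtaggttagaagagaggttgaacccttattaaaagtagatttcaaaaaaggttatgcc
Slc30a3: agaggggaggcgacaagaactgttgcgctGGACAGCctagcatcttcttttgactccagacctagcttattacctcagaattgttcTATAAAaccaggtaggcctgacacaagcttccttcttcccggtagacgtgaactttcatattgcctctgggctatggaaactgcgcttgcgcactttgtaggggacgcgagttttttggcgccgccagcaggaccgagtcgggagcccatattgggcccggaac

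Over 300 bases, from 250 before to 50 after the start, the 20 regions resembled those of transcribed genes more than those of other silent genes in base composition. Their median GC content was 60.0%, against 48.0% in 5499 other silent genes, 60.7% in 10953 genes at 1 CPM or more in a control group and 52.7% in all 27025 regions of the table. The CpG ratio, the number of CpG dinucleotides divided by that expected from the C and G content, had a median of 0.612 in the 20 genes, 0.203 in the other silent genes and 0.746 in the genes transcribed in controls. It ran from 0.111 in *Plcxd1* to 0.945 in *Ccdc158*, so that the 20 genes did not form a uniform class. In the 80 regions of silent genes that reached 3 CPM in exactly 1 cell type, the median GC content was 63.2% and the median CpG ratio 0.662.

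Matches to 6 motifs were counted on both strands of the same windows, with overlapping motifs each counted. A GC box, the site of Sp/KLF factors, was present in 11 of 20 genes (55.0%), against 19.7% of the other silent genes, 62.4% of the genes transcribed in controls and 35.9% of all regions. Of the 80 silent genes raised in exactly 1 cell type, 56.25% held a GC box, a share close to that of the 20. The RE1 core was present in 1 of 20 genes (5.00%), in 5.84% of the other silent genes, 7.58% of the genes transcribed in controls and 6.59% of all regions. TATAAA was present in 4 genes (*Bspry*, *Hap1*, *Ankrd63* and *Slc30a3*, 20.0%), in 23.1% of the other silent genes, 6.25% of the 80 silent genes raised in exactly 1 cell type, 7.71% of the genes transcribed in controls and 14.2% of all regions. The ETS motif CCGGAAG was present in 3 genes (*Bspry*, *Ccdc158* and *Pou3f3*, 15.0%), in 2.82% of the other silent genes, 17.1% of the genes transcribed in controls and 9.12% of all regions. The E-box CACGTG was present in 1 gene (*Ccdc65*), in 4.73% of the other silent genes, 9.83% of the transcribed genes and 7.24% of all regions, and the CRE TGACGTCA in 0 genes, 1.15% of the other silent genes, 3.09% of the transcribed genes and 1.88% of all regions. The 80 silent genes raised in exactly 1 cell type held the RE1 core in 5.00%, the ETS motif in 5.00%, the E-box in 10.0% and the CRE in 2.50%. A match is a string of letters in a window and does not show that a factor binds there. GC content, CpG ratio and GC boxes depend on one another, since a GC box is made of G and C only.

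**Figure D1:**
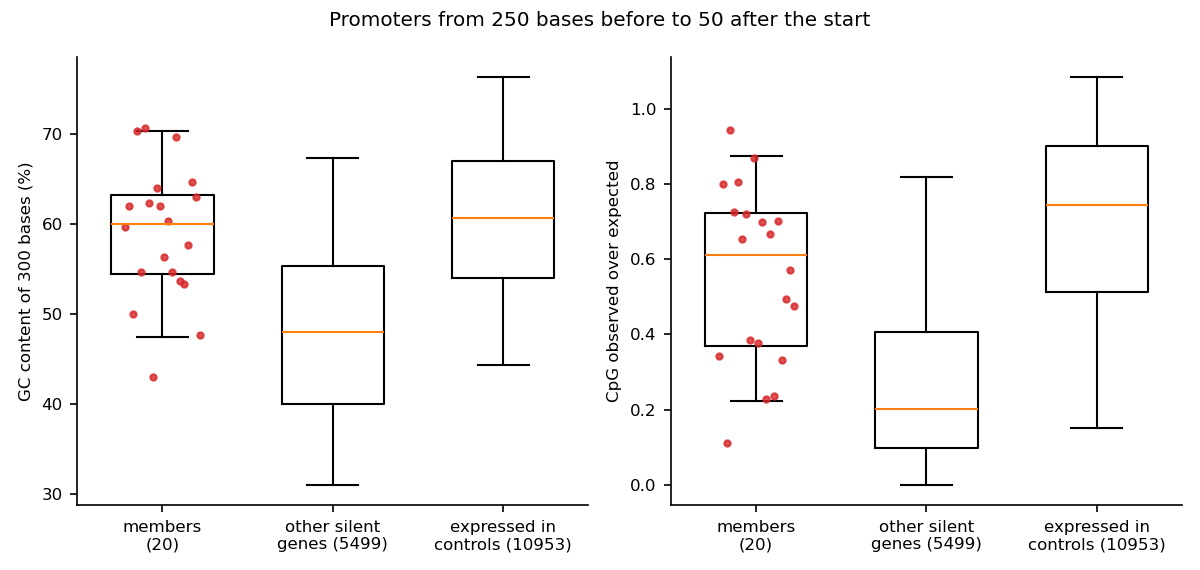
GC content in percent and CpG ratio (observed over expected) of the 300 bases around the RefSeq start, for the 20 genes found in the table (box and red points), other silent genes, and genes at 1 CPM or more in a control group. Boxes give the quartiles and whiskers the 5th to 95th percentiles; the red points spread from a CpG ratio of 0.111 to 0.945 around a median of 0.612, between the medians of the other silent genes (0.203) and of the genes transcribed in controls (0.746).

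The libraries held between 18366289 and 23221473 estimated counts, with a median of 22177562, so that 1 CPM was 18.4 to 23.2 counts. Each cell type expressed 7 or 8 of 8 markers of its own kind at 1 CPM or more. Transcripts that mark other cells were found in some libraries, and whether they came from other cells or from the cells themselves was not tested. The summed level of 8 hepatocyte markers in the myotube libraries was at most 0.179 CPM in the controls, but 44.3, 788.3 and 195.0 CPM in the 3 butyrate libraries and 30.4 CPM in the third βOHB library. In hepatocytes the same sum was 39382 to 47557 CPM. The 3 myotube butyrate libraries thus held 0.0950%, 1.69% and 0.418% of the hepatocyte level, a share that would bring at most 0.212 CPM of any of the 30 genes, that gene being *Ell3* (2.77 to 5.41 CPM in these libraries). The summed level of 8 myotube markers in macrophages was 23.5 to 76.3 CPM under butyrate and 6.08 to 13.9 CPM in controls, which would bring at most 0.0414 CPM of any of the genes. With these hepatocyte shares subtracted, the same 30 genes met the limits. With the limits applied to the other cell types and myotubes left out, 33 genes met them, 9 of which were among the 30. In bulk samples, a change in the number of cells of a type cannot be told apart from a change in RNA per cell.

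Of the 30 genes, 22 reached 3 CPM in 2 cell types, 7 in 3 cell types (*Ell3*, *Gli1*, *Rgs9bp*, *Lrfn1*, *Bspry*, *Pou3f1* and *Tubb4a*) and 1, *Ccdc158*, in 4 of 4. The pairs were not spread evenly over the cell types, as macrophages with myotubes accounted for 11 genes, adipocytes with myotubes for 7, myotubes with hepatocytes for 3 and adipocytes with macrophages for 1. Myotubes reached 3 CPM for 29 genes, all but *Cyp2s1* (1.23 CPM), macrophages for 18, adipocytes for 14 and hepatocytes for 8. At the lower level of 1 CPM the numbers were 30, 28, 25 and 18. The highest of the 4 butyrate levels was found in myotubes for 12 genes, in macrophages for 8, in adipocytes for 6 and in hepatocytes for 4, while the lowest was found in hepatocytes for 21 genes. Because the genes had to be high in at least 2 cell types, these numbers describe the selection as well as the cells.

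The summed level of the 30 genes shows the size of the change library by library. In adipocytes it was 9.70, 8.14 and 9.24 CPM in the controls and 86.6, 90.9 and 91.5 CPM under butyrate. In macrophages it went from 8.11, 7.80 and 8.32 CPM to 131.92, 137.02 and 130.60 CPM. In myotubes it went from 10.2, 12.5 and 10.8 CPM to 144.2, 145.6 and 149.2 CPM, and in hepatocytes from 5.88, 5.67 and 5.67 CPM to 70.5, 69.8 and 69.9 CPM. The sums were thus close between the 3 butyrate libraries of a cell type, the myotube libraries with unequal hepatocyte markers included. The median of the 30 group means was 2.77 CPM in adipocytes, 3.31 CPM in macrophages, 4.30 CPM in myotubes and 1.40 CPM in hepatocytes under butyrate, against 0.195, 0.218, 0.297 and 0.0442 CPM in the controls. Among genes with more than 3 control counts in a group, the median fold change was 11.9 in adipocytes (24 genes, range 2.62–30.7), 13.9 in macrophages (25 genes, 4.72–66.1), 13.3 in myotubes (29 genes, 5.28–56.7) and 10.7 in hepatocytes (14 genes, 1.78–55.9).

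**Figure D2:**
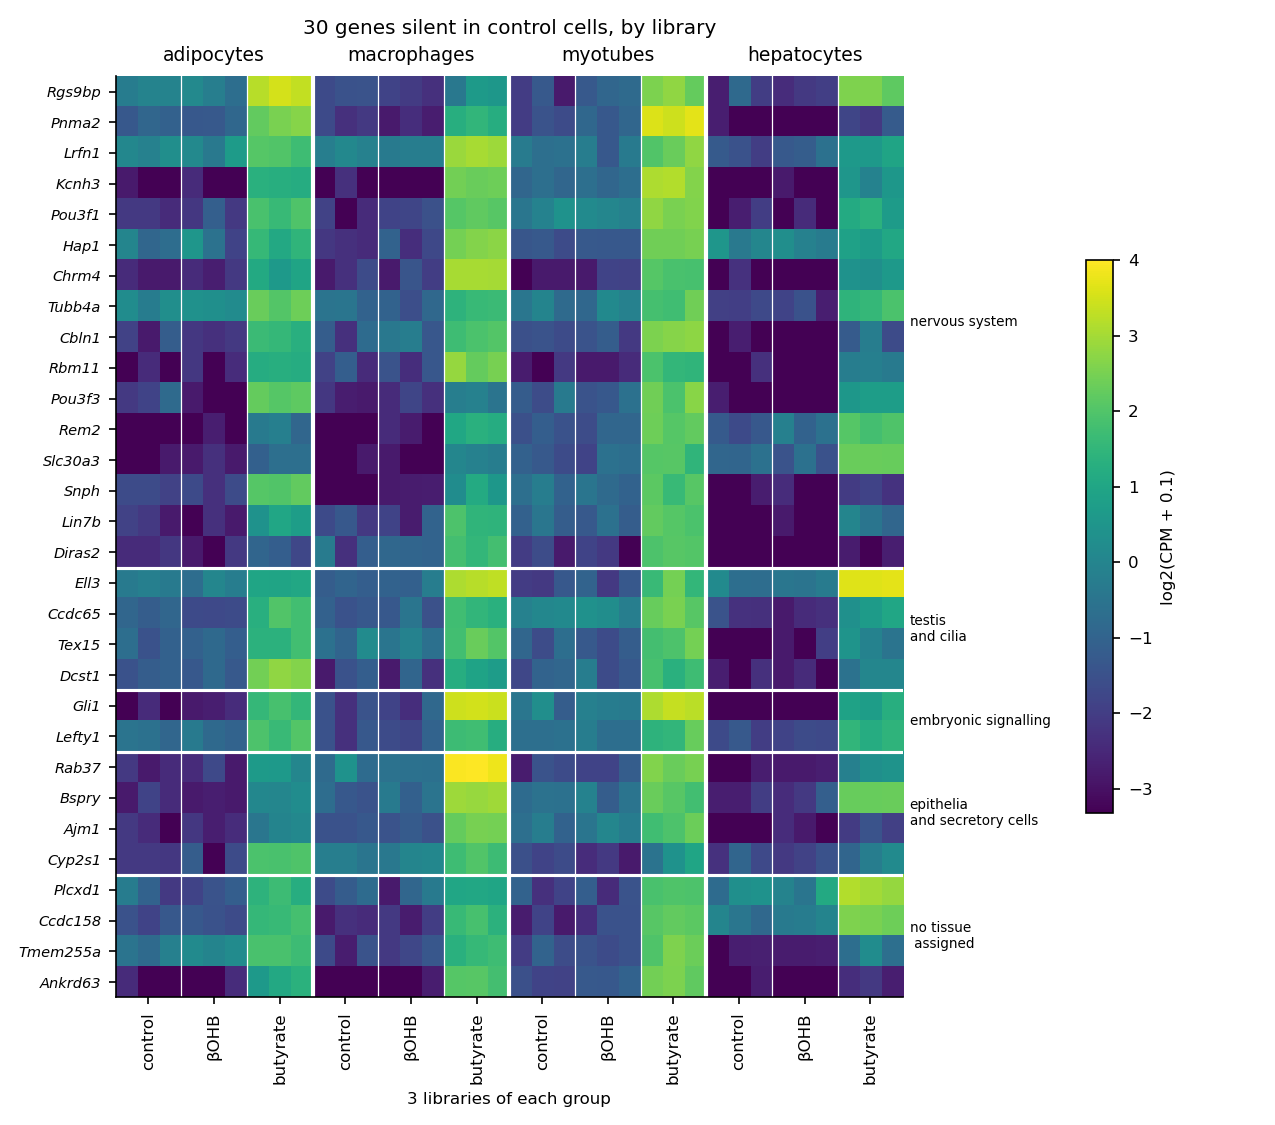
Level of each of the 30 genes (rows, grouped by the tissue of their best known expression) in each of the 36 libraries (columns, by cell type and treatment), as log2(CPM + 0.1). Control and βOHB columns are alike and dark, and the butyrate columns are brighter in each cell type, least so in hepatocytes, where 8 genes reached 3 CPM.

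All 3 butyrate libraries lay above all 3 controls for 30 of 30 genes in adipocytes, macrophages and myotubes and for 29 of 30 in hepatocytes, the exception being *Diras2* with a butyrate mean of 0.0340 CPM. Among the 15340 genes tested the same held for 38.9%, 47.4%, 39.9% and 36% in adipocytes, macrophages, myotubes and hepatocytes. As the selection used these contrasts, nothing is read from the counts of the 30. The other silent genes give the scale of the selection. Of the 7776 silent genes, a further 105 reached 3 CPM under butyrate in exactly 1 cell type, namely 52 in myotubes, 27 in hepatocytes, 22 in macrophages and 4 in adipocytes, and 7185 stayed below 1 CPM under butyrate in all 4 cell types.

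Silence in the controls was not complete for these genes. Over the 12 control libraries, the 30 genes had 16 to 177 counts in all, with a median of 64, and 0 of the 30 were without a count. A count was found in every control library for 11 genes, and only 10 of 120 pairs of gene and control group were at 0. The 105 genes that reached 3 CPM in exactly 1 cell type had a median of 57 control counts. The 7641 silent genes that reached 3 CPM in 0 cell types had a median of 1 control count, and 3741 of them had 0. The genes raised by butyrate were also longer in exonic sequence, with a median of 4204.5 bases for the 30 and 3761 bases for the 105, against 2099 bases for the 7641. Limits in CPM are not per length and pass long genes more easily.

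Values close to the limits show how sharp the selection is. On the butyrate side, the second highest group mean was 3.04 CPM in *Lin7b*, 3.05 CPM in *Rbm11* and 3.07 CPM in *Dcst1*, and just outside it was 2.96 CPM in *Rasd2*, 2.91 CPM in *Eaf2* and 2.89 CPM in *Cfap45*. On the control side, the highest group mean was 0.984 CPM in *Tubb4a*, 0.982 CPM in *Hap1* and 0.970 CPM in *Lrfn1*, and just outside it was 1.01 CPM in *Tmem95*, 1.02 CPM in *Usp44* and 1.02 CPM in *Kcnab3*.

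By the tissue in which they are best known, assigned from general knowledge after the values had been seen, 16 of the 30 genes belong to the nervous system, 4 to testis and cilia, 4 to epithelia and secretory cells and 2 to embryonic signalling, and 4 were given no tissue. The 16 genes of the nervous system all reached 3 CPM in myotubes, 9 did so in macrophages, 7 in adipocytes and 4 in hepatocytes. Of all 30 genes, chosen on these values, the numbers were 29, 18, 14 and 8, so that nothing particular to the nervous system is read from them. In 12 of them the level was reached in 2 cell types and in 4 of them in 3. Of the silent genes on lists of tissue genes, to be read against 30 of 7776 (0.386%) among all silent genes, the 30 held 2 of 58 synaptic genes (*Cbln1* and *Snph*), 1 of 75 genes of the neuronal cytoskeleton (*Tubb4a*), 1 of 88 ion channels (*Kcnh3*), 1 of 89 neurotransmitter receptors (*Chrm4*), 2 of 154 developmental transcription factors (*Pou3f1* and *Pou3f3*) and 1 of 245 germ cell genes (*Tex15*). They held 0 of 58 cilium, 177 epithelial, 60 retina, lens and inner ear, 77 lymphoid, 9 heart and muscle and 81 endocrine, kidney and gut genes. The lists do not hold every gene of a tissue. *Ccdc65* of cilia, *Rgs9bp* of photoreceptors and the 4 genes of epithelia and secretory cells were on none of them. Counted over at least 1 cell type in place of 2, the share that reached 3 CPM was 14.7% of the silent genes of the neuronal cytoskeleton, 10.3% of synaptic genes, 6.74% of receptors, 3.41% of ion channels, 3.25% of developmental transcription factors and 0.408% of germ cell genes, against 1.74% of all silent genes. For the remaining lists it was 2.60% of lymphoid genes, 1.72% of cilium genes, 1.69% of epithelial genes, 1.23% of endocrine, kidney and gut genes and 0% of the retina, lens and inner ear and of the heart and muscle genes. These shares come from the values that chose the genes and are given without a test.

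**Figure D3:**
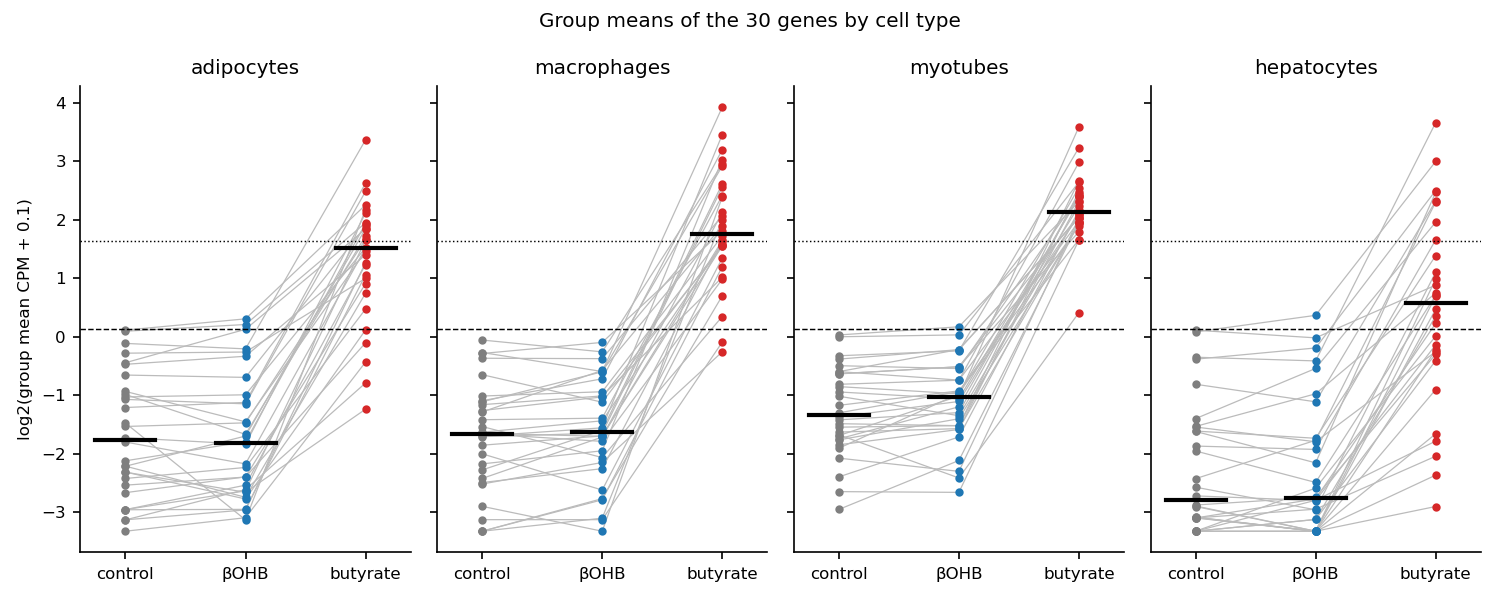
Group mean of each of the 30 genes (points) under control, βOHB and butyrate in each cell type, as log2(CPM + 0.1), with black bars at the medians and lines at 1 CPM (dashed) and 3 CPM (dotted), the limits of the selection. The βOHB medians of 0.185, 0.225, 0.388 and 0.0480 CPM in adipocytes, macrophages, myotubes and hepatocytes lie beside those of the controls, and the butyrate medians lie at 1.40 to 4.30 CPM.

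*Ccdc158*, a coiled-coil protein (chromosome 5, 92607954–92675271, minus strand), was the only gene at 3 CPM or more in 4 of 4 cell types. Its group means in adipocytes (3.08 CPM) and macrophages (3.01 CPM) lay close to that limit. Its levels under butyrate were 2.81, 2.97 and 3.45 CPM in adipocytes, 2.98, 3.52 and 2.53 CPM in macrophages, 4.15, 4.65 and 4.35 CPM in myotubes and 5.85, 5.72 and 5.12 CPM in hepatocytes. The 12 control libraries ran from 0.0431 to 0.916 CPM with a median of 0.177 CPM. The lowest butyrate library, in macrophages, was 2.53 CPM and thus above the highest control of any cell type. The fold change was 12.5 in adipocytes, 38.6 in macrophages, 48.5 in myotubes and 8.33 in hepatocytes, the last being smaller because the hepatocyte controls were the highest (0.668 CPM ± 0.231, SD, n = 3).

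*Ell3*, an elongation factor of RNA polymerase II best known from testis (chromosome 2, 121439010–121444278, minus strand), had the highest mean under butyrate per kilobase of exon, 3.11 CPM per kb over the 4 cell types, followed by *Chrm4* (2.59) and *Bspry* (1.85). It was highest in hepatocytes, where the controls were 1.02, 0.524 and 0.510 CPM and the butyrate libraries 12.3, 12.4 and 13.0 CPM, an 18.3-fold difference. In macrophages it was 0.345, 0.411 and 0.352 CPM in controls and 8.49, 9.14 and 9.65 CPM under butyrate. In adipocytes it was 0.695, 0.788 and 0.690 CPM and then 1.86, 1.84 and 2.00 CPM, a 2.62-fold difference, the smallest of any gene with more than 3 control counts in that cell type. The order of its levels, hepatocytes, macrophages, myotubes (3.02, 5.41 and 2.77 CPM) and adipocytes, was free of overlap between neighbouring cell types. On the same strand, 65.6% of its exonic bases are shared with *Serinc4*, which was at 0.06 to 0.29 CPM in the control and butyrate groups, and estimated counts may be split between such genes.

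The other genes of testis and cilia were lower, at 1.56 (*Ccdc65*), 0.565 (*Dcst1*) and 0.312 CPM per kb (*Tex15*). *Dcst1*, a sperm membrane protein needed at fertilisation, was highest in adipocytes, with 0.261, 0.350 and 0.388 CPM in controls and 5.31, 6.78 and 6.17 CPM under butyrate, an 18.3-fold difference. *Ccdc65*, part of the dynein regulatory complex of motile cilia, was highest in myotubes (4.82, 5.64 and 4.15 CPM, control mean 0.923). *Tex15*, a germ cell protein of meiosis and transposon silencing, reached 4.10 CPM ± 0.815 in macrophages and 4.22 CPM ± 1.11 in myotubes (SD, n = 3), and in hepatocytes it was at 0 in all controls and 0.909 CPM under butyrate, at least 17.4-fold higher against a floor of 3 counts over the group. The summed level of 8 germ cell markers was 0.129–0.586 CPM in macrophage controls and 2.90–3.65 CPM under butyrate, 0.924–1.15 and 2.33–3.20 CPM in myotubes, 0.800–1.41 and 2.07–2.55 CPM in adipocytes and 0.0510–0.314 and 0.135–0.274 CPM in hepatocytes. Most of this was *Ddx4*, a germ cell RNA helicase, in macrophages (0.200 CPM in controls and 2.85 CPM under butyrate) and myotubes (0.515 and 1.89 CPM), while *Tnp1* was at 0 in every group. The part of germ cell RNA in these values was not tested.

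*Gli1*, the transcription factor at the end of Hedgehog signalling and one of its target genes (chromosome 10, 127329882–127341974, minus strand), reached its highest level in macrophages. There the controls were 0.259, 0.103 and 0.264 CPM and the butyrate libraries 10.9, 11.2 and 10.6 CPM, a 52.2-fold difference. In myotubes it was 0.631, 1.12 and 0.349 CPM and then 8.43, 10.2 and 9.27 CPM, a 13.3-fold difference. The butyrate libraries of macrophages thus lay just above those of myotubes, while their controls lay below. In hepatocytes *Gli1* had 0 counts in all 3 controls and was 1.76, 1.60 and 2.29 CPM under butyrate, at least 35.9-fold higher. *Lefty1*, a secreted inhibitor of Nodal, was close in level across cell types, with butyrate means of 3.60, 2.90, 3.38 and 2.52 CPM in adipocytes, macrophages, myotubes and hepatocytes and single libraries from 2.23 to 4.87 CPM. Its adipocyte libraries lay above those of hepatocytes, and the other cell types overlapped with their neighbours.

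**Figure D4:**
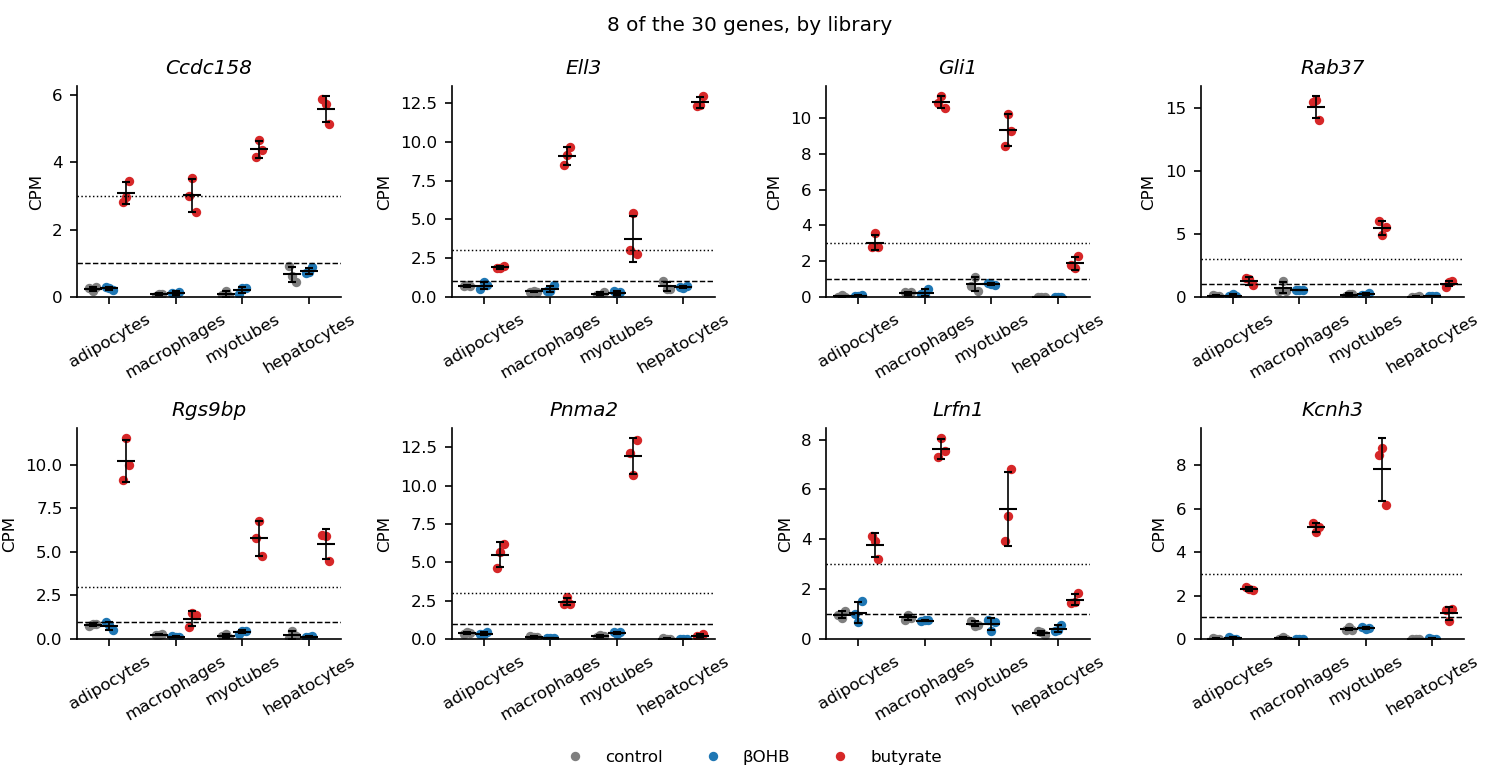
CPM of 8 of the 30 genes in each library (points) by cell type and treatment, with the mean ± SD of 3 libraries and lines at 1 CPM (dashed) and 3 CPM (dotted). Rab37, Gli1 and Lrfn1 are highest in macrophages, Pnma2 and Kcnh3 in myotubes, Rgs9bp in adipocytes and Ell3 and Ccdc158 in hepatocytes, and control and βOHB points lie together near 0.

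Among the genes of the nervous system, *Rgs9bp*, the membrane anchor of a regulator of G protein signalling in photoreceptors (chromosome 7, 35578993–35585582, minus strand), reached 3 CPM in every cell type but macrophages. In adipocytes it was 0.739, 0.875 and 0.863 CPM in controls and 9.13, 11.5 and 10.0 CPM under butyrate. Its butyrate levels were 5.77, 6.77 and 4.76 CPM in myotubes and 5.95, 5.90 and 4.46 CPM in hepatocytes, which overlapped, whereas those in macrophages were only 0.669, 1.48 and 1.36 CPM. The fold change was 34.4 in myotubes, 24.1 in hepatocytes and 12.4 in adipocytes. Adipocytes thus had the highest butyrate level and the smallest fold change of these cell types, as their control level was the highest.

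*Pnma2*, a neuronal protein derived from a retrotransposon Gag gene and known as an onconeural antigen (chromosome 14, 66911170–66921023, plus strand), reached 3 CPM in myotubes and adipocytes. In myotubes it was 0.146, 0.268 and 0.218 CPM in controls and 12.1, 10.7 and 13.0 CPM under butyrate, a 56.7-fold difference and the largest in that cell type among genes with more than 3 control counts. Adipocytes reached 4.62, 5.68 and 6.22 CPM and macrophages 2.31, 2.74 and 2.27 CPM, without overlap, and the fold changes were 14.6 and 16.3. Hepatocytes stayed at 0.190, 0.133 and 0.327 CPM, so that the gene remained close to silent there. *Kcnh3*, a voltage-gated potassium channel of the forebrain, was likewise highest in myotubes (8.47, 8.79 and 6.15 CPM, control mean 0.470), followed by macrophages (5.35, 4.92 and 5.16 CPM, with counts in 1 of 3 controls). In hepatocytes it had 0 control counts and was at least 22.5-fold higher under butyrate at 1.18 CPM.

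*Lrfn1*, a synaptic adhesion protein, had the most control counts of the 30 genes. Its controls ran from 0.153 to 1.12 CPM over the 12 libraries, and under butyrate it was 7.30, 8.07 and 7.53 CPM in macrophages, 3.92, 4.92 and 6.81 CPM in myotubes and 4.14, 3.95 and 3.21 CPM in adipocytes. Macrophages were above the other cell types, while myotubes and adipocytes overlapped. *Chrm4*, the muscarinic acetylcholine receptor M4, had the largest fold change among the macrophage genes with more than 3 control counts. It was 0.0431, 0.103 and 0.220 CPM in macrophage controls and 8.13, 8.07 and 7.99 CPM under butyrate, a 66.1-fold difference, and 3.78 CPM ± 0.281 in myotubes (SD, n = 3). *Hap1*, a partner of huntingtin in neurons, rose 56.5-fold in macrophages, to 6.03 CPM, but only 1.78-fold in hepatocytes, where the controls were 1.35, 0.681 and 0.918 CPM and the butyrate libraries 1.71, 1.51 and 2.01 CPM.

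Both POU factors of neural development were present. *Pou3f1*, which acts in Schwann cells and brain, reached 3.66, 2.97 and 3.89 CPM in adipocytes, 4.12, 4.50 and 4.20 CPM in macrophages and 6.85, 5.64 and 5.99 CPM in myotubes. *Pou3f3* reached 4.72, 4.08 and 4.47 CPM in adipocytes and 5.27, 3.70 and 6.40 CPM in myotubes, but only 0.771, 0.835 and 0.607 CPM in macrophages. The related factors thus parted in macrophages. Among synaptic proteins, *Cbln1*, a secreted organiser of cerebellar synapses, was highest in myotubes (5.82, 6.31 and 6.66 CPM) and lowest in hepatocytes (0.435 CPM), and *Snph*, which anchors mitochondria in axons, reached 4.23 CPM in adipocytes and 3.82 CPM in myotubes and was at least 33.2-fold higher in macrophages, where its controls had 0 counts and its butyrate mean was 1.53 CPM. *Slc30a3*, the zinc transporter of synaptic vesicles, reached 4.95, 4.93 and 4.79 CPM in hepatocytes and 4.06, 4.15 and 2.66 CPM in myotubes. With *Plcxd1* and *Rem2*, it was 1 of the 3 genes that reached 3 CPM in myotubes and hepatocytes alone. *Rem2*, a small GTPase that restrains calcium channels, had 0 counts in the controls of adipocytes and macrophages and was at least 14.8-fold and at least 47.8-fold higher there, at 0.642 and 2.20 CPM.

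Of the remaining genes of the nervous system, *Tubb4a*, a brain isotype of β-tubulin, was at 4.68, 2.87, 4.01 and 3.05 CPM under butyrate in adipocytes, macrophages, myotubes and hepatocytes, with controls of 1.09, 0.744 and 1.12 CPM in adipocytes. *Rbm11*, a splicing factor of brain and testis, was at 7.10, 4.73 and 5.56 CPM in macrophages. *Lin7b*, a scaffold of synapses and junctions, was at 4.14 CPM in myotubes and 3.04 CPM in macrophages, and at least 12.5-fold higher in hepatocytes (0.654 CPM). *Diras2*, a Ras-related GTPase of brain, was at 3.21 CPM in macrophages and 3.99 CPM in myotubes but 0.324 CPM in adipocytes and 0.0340 CPM in hepatocytes.

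Some markers of neurons were also higher under butyrate and others were not. The summed level of 8 neuron markers was 10.5–11.9 CPM in adipocyte controls and 19.5–23.0 CPM under butyrate, 15.6–16.2 and 36.5–42.4 CPM in macrophages, 47.2–49.0 and 94.5–108.6 CPM in myotubes and 0.539–1.48 and 4.47–5.06 CPM in hepatocytes. *Syn1*, a protein of synaptic vesicles, went from 3.95 to 19.8 CPM in macrophages and from 8.65 to 24.4 CPM in myotubes (group means), and *Slc17a7*, a vesicular glutamate transporter, from 0.199 to 4.09 CPM and from 5.15 to 22.1 CPM. *Snap25* went from 0.232 to 1.04 CPM in adipocytes and from 0.0437 to 0.723 CPM in myotubes, and *Nefl* from 3.91 to 8.77 CPM in myotubes. *Tubb3*, at 30.5 CPM in myotube controls and 43.8 CPM under butyrate, held the largest share of the control sums in adipocytes, macrophages and myotubes. The other markers, *Rbfox3*, *Gad1* and *Neurod6*, were at group means of at most 0.116, 0.0792 and 0.0168 CPM. The sum of 8 Schwann and glial markers was 34.4–37.6 CPM in adipocyte controls and 30.9–32.8 CPM under butyrate, 72.36–78.05 and 74.73–79.73 CPM in macrophages, 25.3–31.1 and 13.0–22.6 CPM in myotubes and 3.34–4.40 and 5.55–6.26 CPM in hepatocytes. It was thus lower in adipocytes and myotubes, overlapping in macrophages and higher in hepatocytes, and the part of neural cells in the levels of the 16 genes was not tested.

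In epithelia and secretory cells, *Rab37*, a small GTPase of secretory granules (chromosome 11, 115091431–115162236, plus strand), was highest in macrophages. There it was 0.475, 1.23 and 0.484 CPM in controls and 15.5, 15.7 and 14.1 CPM under butyrate, a 20.7-fold difference. In myotubes it was 6.04, 4.92 and 5.53 CPM under butyrate, 30.8-fold above the controls, and in adipocytes and hepatocytes 1.29 and 1.07 CPM. *Bspry*, a B-box and SPRY domain protein, was 7.56, 7.14 and 7.73 CPM in macrophages (20.6-fold) and 4.81, 4.79 and 4.90 CPM in hepatocytes (55.9-fold, the largest in that cell type among genes with more than 3 control counts). *Cyp2s1*, an epithelial cytochrome P450, was the only gene below 3 CPM in myotubes, with 3.71, 3.59 and 3.89 CPM in adipocytes and 3.19, 3.90 and 3.13 CPM in macrophages. *Ajm1*, an apical junction protein, was at 5.24 CPM in macrophages, but 91.0% of its exonic bases overlap the non-coding gene *Gm26702*, which is not analysed here. The sum of 8 markers of keratinocytes and epithelium was 0.154–0.302 CPM in macrophage controls and 2.23–2.97 CPM under butyrate, 0.869–1.31 and 0.709–0.971 CPM in adipocytes, 56.5–64.99 and 39.4–111.9 CPM in myotubes and 4471–5139 and 3768–4144 CPM in hepatocytes. All 4 genes of this group reached 3 CPM in macrophages. Of all 30 genes, chosen on these values, 18 did so, and nothing particular to this group is read from the count. The marker sum was also higher in macrophages under butyrate, and its part in the levels of the 4 genes was not tested.

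Of the genes without an assigned tissue, *Plcxd1*, a protein with a phospholipase C X domain, was highest in hepatocytes. It was 0.489, 1.16 and 1.23 CPM in controls and 8.81, 7.78 and 7.08 CPM under butyrate there, an 8.20-fold difference. The gene overlaps *Gtpbp6* on the opposite strand over 29.3% of its exonic bases, and *Gtpbp6* moved the other way in hepatocytes, from 14.3 to 8.81 CPM. Whether counting used the strand is not given in the sources used here, and without it reads of such pairs cannot be told apart. *Ankrd63*, an ankyrin repeat protein, had 0 counts in macrophage controls and was 4.06, 4.22 and 3.44 CPM under butyrate, at least 85.1-fold higher, while in hepatocytes it stayed at 0.0943 CPM. *Tmem255a*, a transmembrane protein, was at 4.89 CPM in myotubes and 3.48 CPM in adipocytes. In all, 10 of the 30 genes share exonic bases with another gene, 5 of them with a protein-coding one, and 25 genes were left after those with more than 20% of their exons overlapped had been set aside.

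The βOHB libraries give a comparison that the selection did not use on the treated side, although the control libraries served both. None of the 7776 silent genes reached 3 CPM under βOHB in any cell type (0 genes). The summed level of the 30 genes under βOHB was 10.0, 8.70 and 8.91 CPM in adipocytes, 8.01, 8.81 and 9.58 CPM in macrophages, 13.0, 12.2 and 12.6 CPM in myotubes and 5.88, 5.39 and 7.20 CPM in hepatocytes. These ranges overlapped those of the controls in every cell type. Group means of 1 CPM or more were found for *Lrfn1* (1.06 CPM) and *Tubb4a* (1.14 CPM) in adipocytes, *Ccdc65* (1.03 CPM) in myotubes and *Plcxd1* (1.19 CPM) in hepatocytes, whose control means were 0.970, 0.984, 0.923 and 0.962 CPM. All 3 βOHB libraries lay above all 3 controls for 1 gene in adipocytes, 2 in macrophages, 2 in myotubes and 1 in hepatocytes, where the share among all tested genes was 3.68%, 5.68%, 6.6% and 3.08%.

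In the quasi-likelihood test of edgeR over 15340 genes, 0 of the 30 genes passed an adjusted p of 0.05 under βOHB in adipocytes, macrophages, myotubes or hepatocytes. Among all tested genes, 0.00652% were called in adipocytes (1 gene), 0% in macrophages (0 genes), 2.91% in myotubes (446 genes) and 0.00652% in hepatocytes (1 gene). limma-voom and DESeq2 also called 0 of the 30 in each. At an unadjusted p below 0.05, the numbers were 2 in adipocytes, 2 in macrophages, 3 in myotubes and 2 in hepatocytes, against 7.15%, 2.33%, 13.7% and 5.51% of all genes. The smallest adjusted p among the 30 was 0.496 in adipocytes, 1 in macrophages, 0.219 in myotubes and 0.768 in hepatocytes. The median log2 fold change of the 30 under βOHB was 0.12, 0.15, 0.20 and −0.05 in adipocytes, macrophages, myotubes and hepatocytes, where the median of all genes was 0.00, 0.00, 0.02 and 0.00. The value was above 0 for 19 genes and below 0 for 11 in adipocytes, for 21 and 9 in macrophages, for 24 and 6 in myotubes and for 12 and 16 in hepatocytes. Among all tested genes, 50.5%, 48.8%, 57.1% and 50.3% lay above 0 and 47.6%, 47.8%, 41.7% and 46.6% below it. The genes share libraries, and no test was made of these numbers. Under butyrate, where the selection fixed the direction, it was 3.67, 3.86, 3.71 and 4.07.

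Low counts limited the βOHB test. A 95% interval was formed where a gene had more than 3 counts in the control or the βOHB group, which held for 27 genes in adipocytes, 25 in macrophages, 30 in myotubes and 16 in hepatocytes. The interval lay within 1 on the log2 scale on either side of 0 for 6, 4, 11 and 3 of these genes. For *Ell3* in hepatocytes the log2 fold change was −0.06 with an interval from −0.77 to 0.65, and for *Lrfn1* in adipocytes it was 0.17 with an interval from −0.38 to 0.73. For *Ccdc158* it was 0.12 (−0.86 to 1.09) in adipocytes, 0.49 (−1.10 to 2.07) in macrophages, 1.18 (−0.09 to 2.45) in myotubes and 0.23 (−0.39 to 0.84) in hepatocytes. The remaining intervals reached beyond a 2-fold change in at least 1 direction, and 3, 5, 0 and 14 genes had too few counts for an interval. The median distance from the estimate to the bound of its interval was 1.31, 1.16, 0.92 and 1.15.

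**Figure D5:**
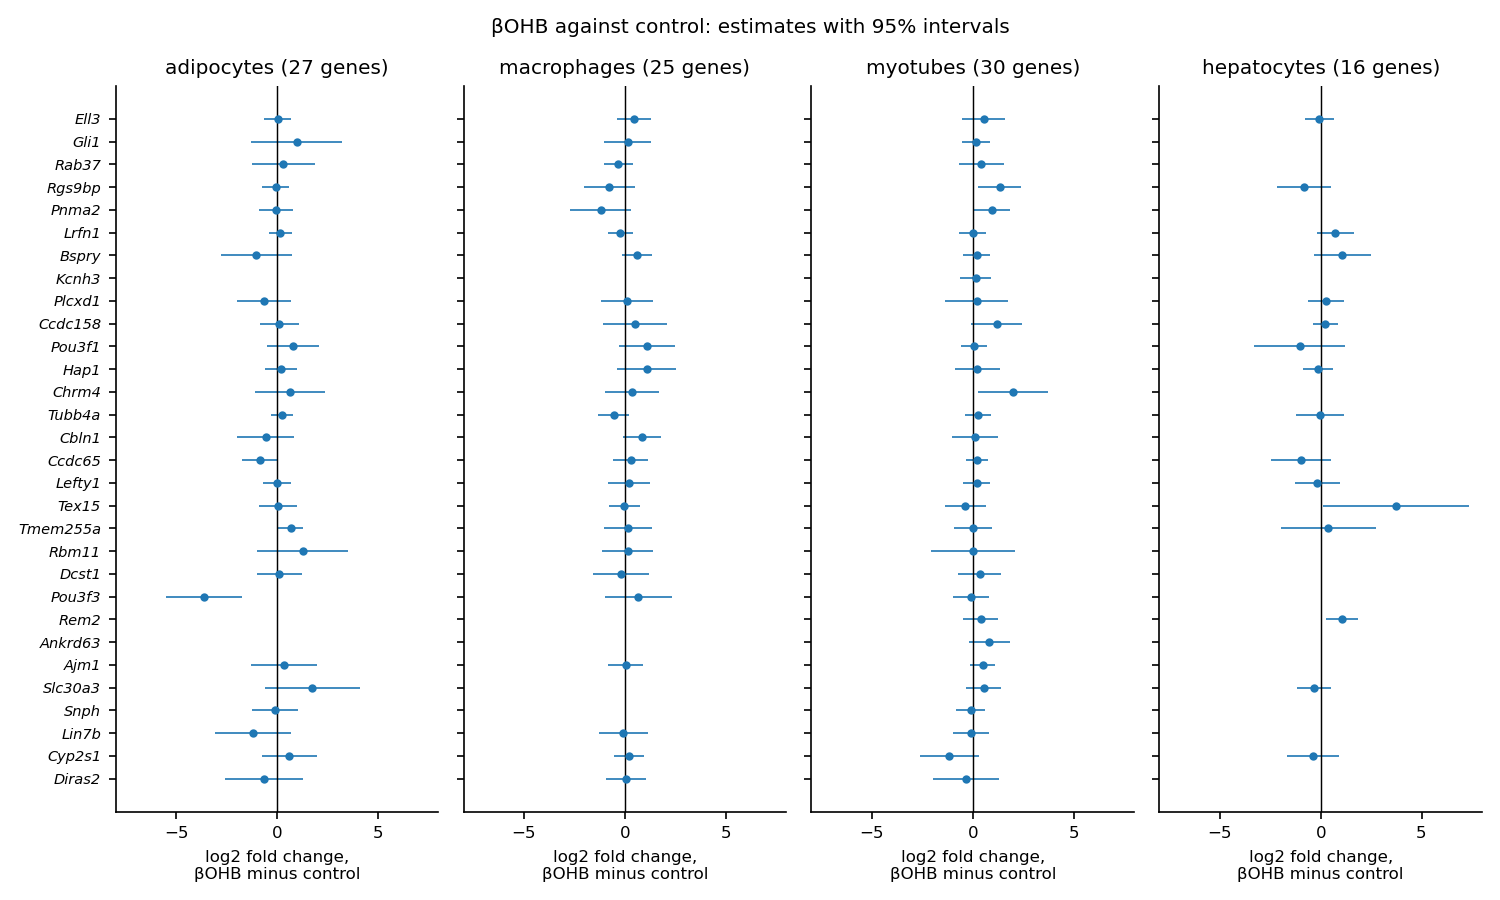
Log2 fold change of βOHB over control (points) with 95% intervals for the genes with more than 3 counts in either group, in adipocytes (27 genes), macrophages (25), myotubes (30) and hepatocytes (16). Most intervals include 0, and 6, 4, 11 and 3 of them lie within 1 on either side of 0.

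Below an unadjusted p of 0.05, the genes with an interval were *Pou3f3* and *Tmem255a* in adipocytes, *Rgs9bp*, *Chrm4* and *Pnma2* in myotubes and *Rem2* and *Tex15* in hepatocytes, all of which failed the adjustment with the filter on low counts in place. *Pou3f3* had the smallest p, with group means of 0.260 CPM (control) and 0.0144 CPM (βOHB) and a log2 fold change of −3.62 (−5.52 to −1.73) with an adjusted p of 0.496 in edgeR. The value was −5.49 without βOHB replicate 1 and −2.88 without control replicate 3, and the gene was called when low counts were left unfiltered (adjusted p = 0.0148 in edgeR). *Rem2* in hepatocytes was second, with 0.323, 0.210 and 0.306 CPM in controls and 0.806, 0.390 and 0.568 CPM under βOHB, which did not overlap, and a log2 fold change of 1.07 (0.28 to 1.85) with an adjusted p of 0.768 in edgeR. Its hepatocyte level under butyrate was 3.79 CPM. *Rgs9bp* in myotubes had a log2 fold change of 1.33 (0.26 to 2.39) with an adjusted p of 0.219, *Chrm4* one of 1.98 (0.24 to 3.73) and *Pnma2* one of 0.94 (0.05 to 1.82). The value of *Rgs9bp* was 2.15 without control replicate 2 and 0.88 without control replicate 3. Under butyrate these genes had 5.77, 3.78 and 11.9 CPM in myotubes. *Tmem255a* in adipocytes had a log2 fold change of 0.67 (0.07 to 1.28) between 0.637 and 0.994 CPM, and *Tex15* in hepatocytes had 0 counts in controls and 4 under βOHB. In macrophages, the 2 genes below 0.05, *Rem2* and *Snph*, had at most 3 counts in either group and no interval was formed. The βOHB and control myotube libraries also differed in macrophage markers, with sums of 44.5–103.6 CPM under βOHB and 107.9–288.6 CPM in controls, and the part of this in the myotube values was not tested.

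Transcripts of the silencing machinery moved in both directions under butyrate. On 6 lists, 76 genes for REST and its partners, Polycomb repressive complexes 1 and 2, DNA methylation, H3K9 methylation and NuRD were all abundant enough to be tested. The list of DNA methylation also holds *Tet1*, *Tet2* and *Tet3*, whose enzymes act to remove this mark, and they are counted with the others. In the edgeR test, 23 rose and 30 fell in adipocytes, 27 and 31 in macrophages, 22 and 36 in myotubes and 29 and 28 in hepatocytes, that is 30.3% and 39.5%, 35.5% and 40.8%, 28.9% and 47.4%, and 38.2% and 36.8%. Among all tested genes, 30.7% rose and 30.3% fell in adipocytes, 31.9% and 33.2% in macrophages, 33.1% and 33.4% in myotubes and 31% and 32.4% in hepatocytes, which is the background for the counts on the lists. In this test the share that fell was higher on the lists than among all genes in each cell type, and the difference was not tested. With scaling by library totals alone, which shifted the median over all tested genes by 0.07, 0.20, 0.13 and 0.02 on the log2 scale, the numbers were 27 and 19, 38 and 19, 31 and 24, and 32 and 24. Among all tested genes the same scaling gave 5404 rises and 3799 falls in adipocytes, 6677 and 3341 in macrophages, 6262 and 3883 in myotubes and 5183 and 4476 in hepatocytes. Both the lists and all genes had more rises and fewer falls under this scaling. In adipocytes the shares that fell were then nearly the same, with 19 of 76 on the lists and 3799 of 15340 among all genes. In the same direction in 4 of 4 cell types, 11 genes of the lists rose (14.5%) and 9 fell (11.8%), and of all tested genes 12.5% rose and 12.7% fell.

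The list of H3K9 methylation and heterochromatin had more falls than rises in each cell type. Of 10 genes, 7 fell in adipocytes, 6 in macrophages, 7 in myotubes and 6 in hepatocytes, while 1, 2, 1 and 1 rose, and the median log2 fold change was −0.43, −0.37, −0.37 and −0.35 where that of all genes was 0.00, 0.00, 0.00 and −0.01. With library totals alone 5, 4, 5 and 5 fell and 1, 2, 2 and 1 rose. *Suv39h1*, a methyltransferase of H3K9, fell in each, with log2 fold changes of −1.23, −0.80, −1.66 and −1.35 in adipocytes, macrophages, myotubes and hepatocytes (for example 14.3 CPM ± 0.418 to 6.46 CPM ± 0.437 in adipocytes, SD, n = 3, adjusted p = 5.83e-14 in edgeR).

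Polycomb genes moved in both directions. Of 22 genes of Polycomb repressive complex 1, 10 rose and 7 fell in adipocytes, 10 and 5 in macrophages, 9 and 10 in myotubes and 12 and 5 in hepatocytes. Scaled by library totals, 11 rose and 3 fell, 15 and 2, 11 and 6, and 14 and 5, which turned the balance in myotubes. *Cbx2*, a reader of H3K27 methylation, rose by log2 fold changes of 1.95, 1.49, 1.23 and 1.48, from 5.46 CPM ± 0.339 to 22.5 CPM ± 1.30 in adipocytes (SD, n = 3, adjusted p = 5.20e-17 in edgeR). *Cbx7* rose by 1.06, 1.71, 1.59 and 0.36, and *Cbx6* by 1.28, 0.86, 0.19 and 2.32, of which the myotube value had an adjusted p of 0.0341 in edgeR and was lost under 5 other settings. *Bmi1*, another core subunit of the same complex, had log2 fold changes of −1.31, −1.15, −1.10 and −1.38. *Cbx2* and *Bmi1* thus moved in opposite directions in each cell type.

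Of 11 genes of Polycomb repressive complex 2, 4 rose and 3 fell in adipocytes, 4 and 4 in macrophages, 3 and 3 in myotubes and 6 and 3 in hepatocytes (scaled by library totals, 4 and 1, 7 and 2, 5 and 2, and 6 and 2), and *Jarid2*, an accessory subunit, rose in each (1.05, 1.21, 1.56 and 1.53 on the log2 scale). Of 13 genes for REST and its partners, 4 and 4, 5 and 5, 5 and 5, and 3 and 6 rose and fell (6 and 2, 7 and 4, 7 and 4, and 3 and 4 with library totals alone), and the corepressor *Rcor2* rose in each (1.10, 2.39, 1.17 and 1.44). Of 12 genes of DNA methylation, 2 and 5, 1 and 8, 3 and 7, and 6 and 4 rose and fell (2 and 5, 2 and 4, 3 and 4, and 7 and 4 with library totals alone). Of 8 genes of NuRD, 2 and 4, 5 and 3, 1 and 4, and 1 and 4 rose and fell (3 and 3, 5 and 3, 3 and 3, and 1 and 4 with library totals alone), and *Mta3* had log2 fold changes of −0.66, −1.08, −0.65 and −1.91, the last with an adjusted p of 3.54e-20 in edgeR.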

How the data were processed

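RNA of 36 libraries (12 groups of 3) was sequenced in paired reads of 150 bp. The authors deposited 1 table of estimated counts per gene for the series, made with Salmon (1.2.1 in the submitters' processing notes) against GENCODE M25 of GRCm38. Gene names, biotypes and positions were taken here from GENCODE M21 of the same assembly, which held 54094 of 54347 identifiers. Promoters were taken from RefSeq.

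Counts were divided by library totals for CPM. For tests they were rounded and analysed with edgeR 4.0.16 (quasi-likelihood, TMM, 12 group means, genes above 1 CPM in at least 6 libraries, Benjamini-Hochberg over 15340 genes, threshold 0.05) in R 4.3.3, and with limma 3.58.1 and DESeq2 1.42.0 as alternatives. The fit was tested on simulated data first. Standard errors for the intervals were the larger of that of the fit and that implied by its p. Folds are ratios of group mean CPM. A group at 0 was set to a floor of 3 counts over the group.

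The genes and gene lists were chosen with earlier results of these data known. Genes described in full were those at 3 CPM or more in 4 of 4 cell types, the 10 of highest mean under butyrate, the 3 highest per cell type and those next to the limits. Other members were named after their values were seen. Silencing genes named were the 8 of largest mean change among those changed the same way in 4 of 4 cell types. Groups of 3 were too small for an outlier test, and 3 against 3 in an exact permutation test cannot give a p below 0.1.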

Additional observations from a re-analysis of the deposited data

How the results depend on the processing

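The number of genes that met the limits depended on the limits. It was 12 with a control limit of 0.5 CPM and 92 with 2 CPM, 73 with a butyrate limit of 2 CPM and 8 with 5 CPM, 8 for at least 3 cell types, and 13 when every control library had to be below 1 CPM and every butyrate library at 3 CPM or more. With 1 cell type sufficing, 105 genes were added. TMM-scaled CPM gave 23 genes (21 of the 30), medians in place of means 29 (26 of the 30), all biotypes 32, and leaving out a library 28 to 33. Settings chosen after seeing the data gave 30 after subtraction of the hepatocyte share from myotubes, 25 without overlapped genes and 33 (9 of the 30) without myotubes.

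Under βOHB the number called stayed at 0 in each cell type in every alternative but that without a filter on low counts, which called 1 gene in adipocytes (*Pou3f3*, log2 fold change −3.63). Leaving out a library gave 0 to 0. The number of silencing genes called was 53, 58, 58 and 57 in adipocytes, macrophages, myotubes and hepatocytes, and 45 to 48, 51 to 56, 52 to 55 and 53 to 56 when a library was left out. Of 448 alternative values for the 8 named silencing genes, 443 kept their call and 5 lost it (*Cbx6* in myotubes, 0.12 to 0.18), and 0 changed sign. Replicate numbers were shared between groups, and deviations of equal numbers correlated at −0.216 to 0.225. In adipocytes, each control correlated best with the treated library of its own number, except replicate 2 with βOHB. With 3 libraries per group, these values cannot decide whether equal numbers share an animal or culture. With the replicate block 53, 61, 56 and 55 silencing genes and 0 of the 30 genes under βOHB were called. With 18.4 to 23.2 counts per CPM, the levels of silent genes rest on few counts.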
